A study of Mus musculus with 109 samples.

Results

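Double mutant microglia taken 48 h after lipopolysaccharide (LPS) were set against microglia of untreated mice of the same genotype. The double mutants carried the CX3CR1-CreER driver with floxed alleles of Il10ra, which encodes the ligand-binding chain of the interleukin 10 receptor, and of Tnf, which encodes tumour necrosis factor. The libraries were picked from the authors' table of this mutant by sample title, which gave 4 libraries at 48 h and 5 untreated ones, 9 of the 109 samples of the series. Treated mice had received 2.5 mg/kg LPS intraperitoneally and untreated mice were at steady state, with no vehicle injection named in the labels. Both groups came from the same 2 experiments, labelled AS_DKO_LPS_2ndexp (here the AS experiment, 2 libraries at 48 h and 2 untreated) and DKO_post_LPS (here the DKO_post experiment, 2 libraries at 48 h and 3 untreated). Also used were 6 libraries of double mutants 6 h after the same dose. Mice with both genes floxed but no Cre in their genotype label (floxed controls) gave 6 libraries at 48 h and 6 untreated. The fit of 37 libraries also held 5 of floxed controls at 6 h. It further held 5 libraries of Il10ra single mutants at 48 h, which carried the driver and floxed Il10ra. Of these single mutants, 2 came from the AS experiment and the others from AS_3rd_LPS_7B4_IL10R. All double mutants, treated or not, carried the driver and both floxed genes, so the main comparison concerns LPS within 1 genotype. CX3CR1-CreER acts in cells that express Cx3cr1, which includes blood and border myeloid cells besides microglia, and the time and manner of Cre induction are not given in the labels. Nothing in the labels says that each library was a separate animal, so the p-values measure only the spread between libraries. In the main fit that spread was pooled over all 37 libraries, not only those compared.

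Microglia are the resident macrophages of the brain. LPS, a component of the outer membrane of Gram-negative bacteria, is bound by CD14 and Toll-like receptor 4 and switches on NF-kB and interferon regulatory factors, which drive cytokines, chemokines and interferon. Secreted tumour necrosis factor carries the signal further through its receptors and the kinase RIPK1, while interleukin 10 acts through its receptor and STAT3 to restrain inflammatory genes. Type I interferon acts through STAT2 and IRF9, among other factors, on genes with interferon-stimulated response elements, most of them antiviral. The microglial identity genes, many of them dependent on TGF-beta, are known to decline when these cells are activated.

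Values are normalised reads per gene from 3′ tag libraries made by MARS-seq, and log2 differences were taken on the log2(value + 1) scale. The 9 libraries held 540642 to 2489084 recovered reads. Depth differed between the groups, with 758586 to 2489084 reads at 48 h (median 1402836.5) and 540642 to 1450594 untreated (median 797453). Mitochondrial reads made up 1.35 to 2.38% at 48 h and 0.0948 to 1.27% untreated, so these ranges did not overlap. Values of 0 or a few reads in the untreated group are to be read with this in mind. The microglial marker Csf1r stood at 6001 to 8179 normalised reads at 48 h, against 7766 to 10510 in untreated double mutants. Csf1r is 1 of 8 defining markers of microglia, of which 4 were called lower at 48 h (median log2 difference -0.44). Summed, these markers ran from 20750 to 25240 at 48 h, against 32070 to 34010 untreated. The summed neuronal markers were at 3.09 to 9.03 at 48 h, against 0 to 7.32 untreated. Libraries of 1 group were not all alike. Untreated library 1 had 0.0948% mitochondrial reads where the other untreated libraries had 0.959 to 1.27%, and held low values of Gpr34, Tlr3, Tlr7, C3ar1 and Abca1. Library 1 at 48 h was low in proliferation genes and high in border macrophage markers. Untreated library 3 held the neutrophil genes S100a8 at 232 and S100a9 at 355 normalised reads. In bulk libraries fewer cells of a type and less RNA per cell cannot be told apart.

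Both targeted genes were low in the double mutants at either time. Il10ra stood at 76.4, 49.7, 13.2 and 14.7 normalised reads in the 48 h libraries, against 37.1, 31.7, 9.75, 24.0 and 32.2 in the untreated ones, a log2 difference of 0.18 ± 0.29 (SE, adjusted p = 0.743). These groups overlapped, and floxed controls averaged 413.5 ± 53.3 at 48 h and 482.9 ± 42.4 untreated (SD, n = 6 each). The sign of the Il10ra difference was not shared by the experiments. It was 0.83 within the AS experiment (adjusted p = 0.346) and -0.48 within the DKO_post experiment (adjusted p = 0.698). Tnf stood at 6.18, 9.27, 4.39 and 4.51 at 48 h, against 7.88, 11.3, 0, 0 and 0 untreated. It was not called (log2 difference 1.27 ± 0.47, adjusted p = 0.0535), though it passed with untreated library 1 left out (1.51, adjusted p = 0.0236), with untreated library 2 left out (1.64, adjusted p = 0.0114) and with 48 h library 1 left out (log2 difference 1.50, adjusted p = 0.0371). Its direction differed between the experiments, with a log2 difference of -0.28 within the AS experiment (adjusted p = 0.798) and 2.45 within the DKO_post experiment (adjusted p = 0.0472). In floxed controls Tnf averaged 134.9 ± 62.6 at 48 h and 14.5 ± 7.51 untreated. The position of the tags relative to the floxed exons is not given. Cx3cr1, the fractalkine receptor whose locus drives CreER, stood at 1354 to 1837 at 48 h, against 1155 to 3102 untreated, and was not called (log2 difference -0.35 ± 0.22, adjusted p = 0.303); without untreated library 1 it passed (-0.60, adjusted p = 0.037).

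At 48 h the double mutants still differed from untreated ones at 2130 of 11800 genes tested, or 18.1% (limma, Benjamini-Hochberg adjusted p under 0.05). Of these, 1321 were higher (11.2% of genes tested) and 809 lower (6.86%), 62.0% of the calls being higher. After quantile normalisation the split was 1112 higher and 1064 lower, or 51.1% higher. Rises were the larger changes: 793 genes rose and 308 fell by at least 1 log2 unit, 86 rose and 9 fell by at least 3, and 27 rose and 0 fell by at least 4. The median over all genes tested was 0.03. Every 48 h library lay above every untreated one for 913 genes (7.74%) and below for 655 (5.55%). Fitted alone, the 2 against 2 libraries of the AS experiment gave 21 genes higher and 1 lower, and the 2 against 3 of the DKO_post experiment gave 254 higher and 140 lower. The medians of the main gene lists are therefore also given within each experiment.

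**Figure D1:**
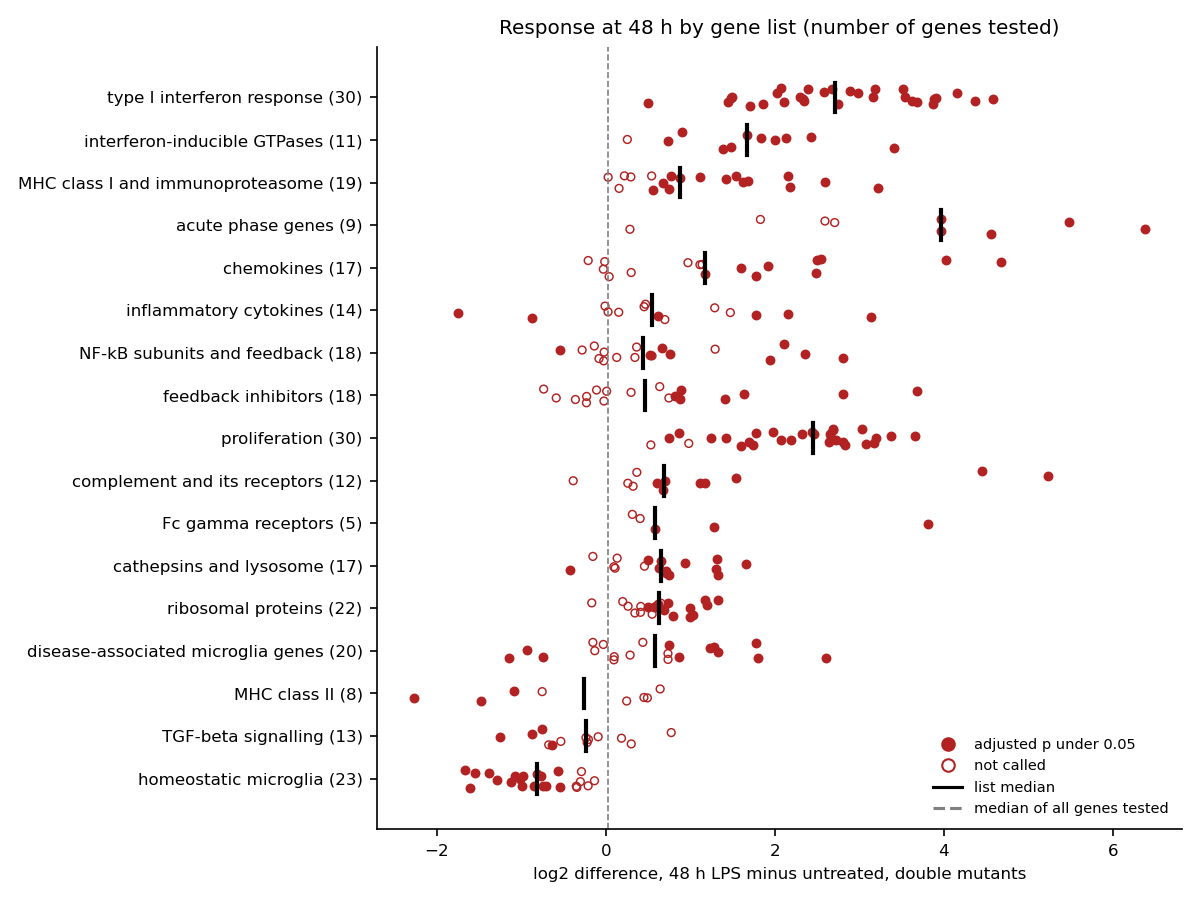
Log2 difference of each gene tested in 17 gene lists between double mutants 48 h after LPS and untreated double mutants. Each point is a gene, filled where its adjusted p was under 0.05, the black bar is the list's median and the dashed line the median of all genes tested at 0.03. The type I interferon list lies wholly to the right, with its median at 2.71, and the homeostatic list wholly to the left, with its median at -0.81.

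The largest rises were in secreted proteins of the acute phase, the matrix and complement. Saa3, serum amyloid A, an acute phase protein made by macrophages, had 3253, 2638, 2146 and 4595 normalised reads at 48 h, against 24.8, 31.0, 35.1, 56.6 and 42.5 untreated. The groups lay far apart, with a log2 difference of 6.39 ± 0.32 (SE, adjusted p = 2.18e-18), and the difference was 6.67 within the AS and 6.13 within the DKO_post experiment. Fn1, fibronectin, stood at 367, 217, 164 and 173 at 48 h, against 1.95 to 4.50 untreated, again with no overlap (5.87 ± 0.40, adjusted p = 3.34e-14). C4b, a component of the classical complement pathway, held 525, 436, 484 and 416, against 15.8, 10.6, 9.75, 12.7 and 8.79 (5.24 ± 0.25, adjusted p = 8.23e-19). The 48 h libraries of C4b were close to each other, and none came near the untreated range; C4b has a near-identical copy, C4a, to which tags could have been split. Lrg1, a secreted glycoprotein of the acute phase, was at 182, 64.9, 43.9 and 56.4, against 0 to 5.85 (log2 difference 5.48).

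The other genes among the 15 largest rises were of several kinds. Xdh, which turns xanthine into uric acid, rose by 4.72 log2 units, Cyp4f18, a cytochrome P450, by 4.71 and Fxyd5, a regulator of the sodium pump, by 4.71. Cxcl13, a chemokine that attracts B cells, rose by 4.67, the matrix protein Adamtsl4 by 4.67, and Cd72, an inhibitory receptor known from B cells, by 4.66. Zbp1, a sensor of Z-form nucleic acid, rose by 4.59, the interferon-induced Ifi27l2a by 4.58 and Lcn2, which binds bacterial siderophores, by 4.55, or by 5.17 without untreated library 3. The matrix protein Ecm1 rose by 4.50 and complement C3 by 4.45. Each of these 15 had all 48 h libraries above all untreated ones, as the rule for naming them required.

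The acute phase list as a whole had 5 of its 9 genes tested higher and 0 lower, with a median of 3.97, against 0.03 over all genes. Its medians were 4.83 within the AS and 3.76 within the DKO_post experiment. Besides Saa3, Lrg1 and Lcn2, the members that rose were Cp, the copper carrier ceruloplasmin (3.97), and Chil1, a chitinase-like protein (3.97). S100a8 and S100a9, which neutrophils hold in bulk, were not called. S100a8 stood at 353, 107, 8.78 and 10.2 at 48 h, against 11.3, 0.704, 232, 1.41 and 0 untreated, so 48 h libraries 1 and 2 and untreated library 3 carried nearly all of it. Without untreated library 3 its log2 difference passed, at 4.09 (adjusted p = 0.0342), as did that of haptoglobin, Hp, at 3.38 (adjusted p = 0.0162). Summed neutrophil markers ran from 301 to 1453 at 48 h, against 313 to 1193 untreated, and 1 of their 9 genes tested was called. Their median log2 difference was 3.02 within the AS experiment (7 above 0, 2 below, 0 called). Within the DKO_post experiment it was -0.23 (3 above 0, 5 below, 0 called). The part of neutrophil RNA in the acute phase values was not tested.

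A promoter of Saa3 (RefSeq, GRCm38.p6, chr7:46715627-46715926, minus strand, 250 bases before to 50 after the gene's start) is shown because this gene had the largest rise. Capitals mark the match to the C/EBP motif TTGCNNAA, looked for on both strands.
Saa3: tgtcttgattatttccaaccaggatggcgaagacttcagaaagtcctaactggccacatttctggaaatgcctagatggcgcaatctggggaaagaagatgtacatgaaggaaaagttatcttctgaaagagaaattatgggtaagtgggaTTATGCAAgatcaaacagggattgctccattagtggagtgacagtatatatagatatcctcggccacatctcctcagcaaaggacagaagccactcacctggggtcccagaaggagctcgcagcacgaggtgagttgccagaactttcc
The match begins 99 bases before the gene's start. These letters were found in 4 of 9 promoters of the acute phase genes tested (44.4%), with 8 of the 9 genes matched to RefSeq. They were found in 10.8% of all 32851 RefSeq promoter windows of the same length. Of the same 9 promoters 0 held the kappaB letters GGGANNTTCC (1.47% of all windows) and 1 the STAT letters TTCNNNGAA (11.1%, against 8.3%). Several motifs were searched in each of the lists with promoter counts, and not every count is given.

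**Figure D2:**
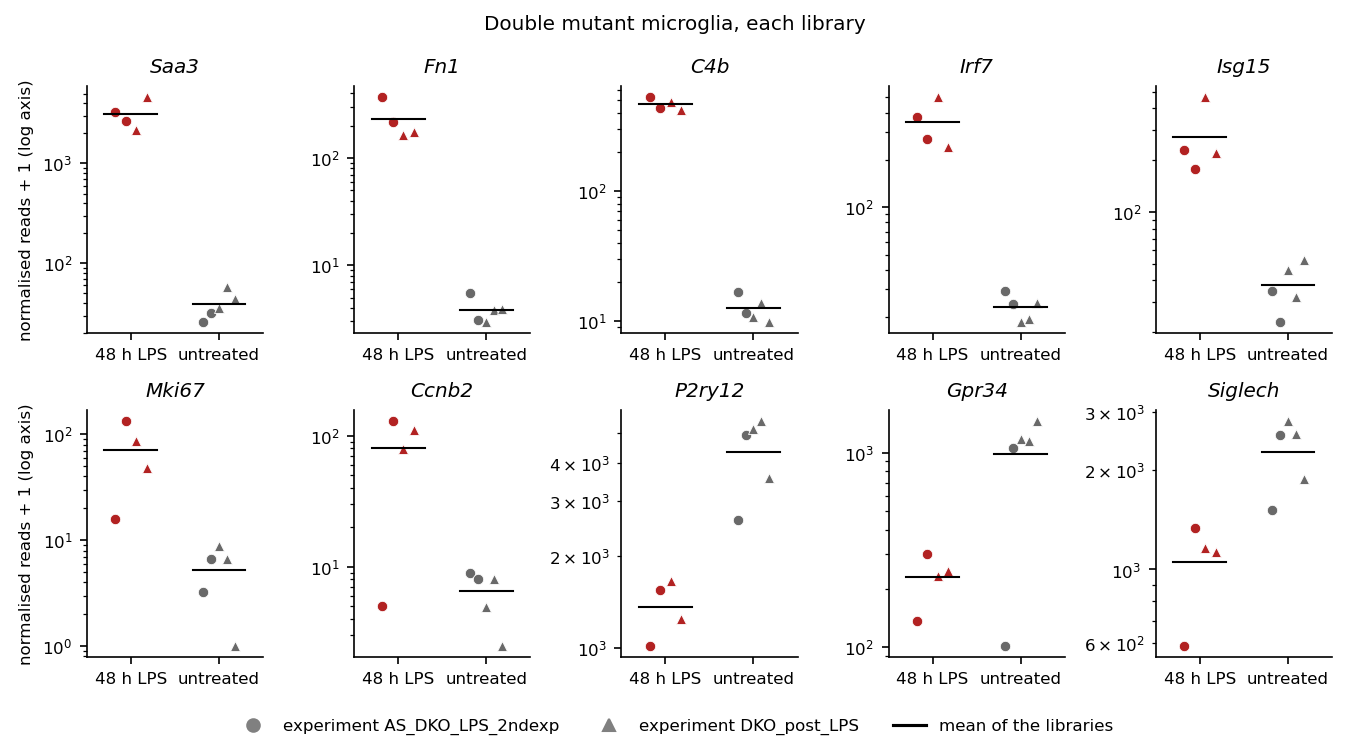
Normalised reads plus 1 (log axis) of 10 genes in each double mutant library, 48 h after LPS on the left and untreated on the right. Points are libraries, their shape the experiment, and lines the means. Saa3, Fn1, C4b, Irf7 and Isg15 lie higher and P2ry12 and Siglech lower in all 4 libraries at 48 h; in Ccnb2 48 h library 1 at 3.98, and in Gpr34 untreated library 1 at 100.2, lie on the side of the other group.

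Interferon-stimulated genes rose together. All 30 members of the type I interferon list were higher at 48 h and 0 lower, with a median of 2.71, where 11.2% of all genes tested were higher. The median was 2.54 within the AS experiment (3 of 30 called, all 30 above 0) and 2.86 within the DKO_post experiment (23 of 30 called, all 30 above 0). Irf7, the factor that amplifies interferon production, stood at 373, 271, 500 and 240 normalised reads at 48 h, against 28.1, 23.2, 17.6, 18.4 and 23.4 untreated. No untreated library came near the 48 h ones (log2 difference 3.88 ± 0.23, adjusted p = 7.9e-16). The nucleic acid sensor Ifi204 had 338, 256, 338 and 198, against 8.79 to 22.5 (4.15 ± 0.23, adjusted p = 6.93e-17). Among the antiviral effectors, the oligoadenylate synthetase genes Oas2 and Oasl2 rose by 4.36 and 3.91, the translation inhibitor Ifit2 by 3.52, and the viperin gene Rsad2 by 3.87. Stat2, which carries the type I interferon signal, rose by 2.11. The smallest rise was that of Irf9, its partner in the complex, at 0.50; with untreated libraries 1 and 4 left out it was 0.43 and no longer passed (adjusted p = 0.0616). The interferon-inducible GTPases, which act on vacuoles that hold pathogens, had 10 of 11 higher and 0 lower, with a median of 1.68. Iigp1 among them rose by 3.41 (2.64 without untreated libraries 1 and 4), Gbp2 by 2.00 and Irgm1 by 1.39.

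The promoters of 2 genes of this list are shown because their genes rose strongly and both hold the interferon-stimulated response element, searched as GAAANNGAAA on both strands and written in capitals. Windows are from RefSeq (GRCm38.p6), 250 bases before to 50 after the start, Ifit3 at chr19:34583279-34583578 on the plus strand and Isg15 at chr4:156200769-156201068 on the minus strand.
Ifit3: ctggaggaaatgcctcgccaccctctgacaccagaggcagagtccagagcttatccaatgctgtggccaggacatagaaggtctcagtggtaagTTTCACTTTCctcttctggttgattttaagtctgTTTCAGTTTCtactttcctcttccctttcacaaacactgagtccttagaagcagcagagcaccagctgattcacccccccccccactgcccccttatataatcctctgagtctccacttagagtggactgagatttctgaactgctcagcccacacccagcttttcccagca
Isg15: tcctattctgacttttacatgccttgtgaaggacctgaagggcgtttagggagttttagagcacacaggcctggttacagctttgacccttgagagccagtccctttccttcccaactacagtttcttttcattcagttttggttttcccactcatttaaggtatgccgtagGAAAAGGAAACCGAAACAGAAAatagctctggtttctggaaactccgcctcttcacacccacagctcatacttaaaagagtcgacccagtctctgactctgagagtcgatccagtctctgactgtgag
Ifit3 holds 2 matches, which read on the opposite strand. Isg15 holds 3, beginning 78, 72 and 66 bases before the start, each overlapping the next. Of the 30 genes 21 were matched to RefSeq with 25 promoters, 12 of which (48.0%) held the element, against 3.44% of all windows. Ifit3, which blocks translation of foreign RNA with its relatives, had 72.9, 54.3, 107 and 50.8 normalised reads at 48 h, against 13.5, 7.75, 9.75, 9.90 and 8.79 untreated (log2 difference 2.75 ± 0.31, adjusted p = 1.58e-08). Isg15, a ubiquitin-like modifier, had 227, 177, 464 and 218, against 33.8, 21.8, 44.8, 31.1 and 51.2 (2.89 ± 0.31, adjusted p = 2.38e-09). For both genes the lowest 48 h library lay above the highest untreated one. Ifit3 has a near-identical copy, Ifit3b, so its tags could have been split. Of 23 homeostatic genes 16 were matched, also with 23 promoters, of which 0 held these letters. With 3.44% of all windows holding them, so few promoters cannot show a shortage.

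Genes of the cell cycle were higher as well. Of 30 genes on the proliferation list 28 were higher at 48 h and 0 lower, with a median of 2.45, where 11.2% of all genes tested were higher. All 30 lay above 0 within each experiment, with medians of 1.73 in the AS experiment (0 called) and 2.84 in the DKO_post experiment (15 called). Mki67, the marker of cycling cells, stood at 15.02, 131.8, 86.3 and 47.4 at 48 h, against 2.25, 5.63, 7.80, 5.66 and 0 untreated (3.66 ± 0.59, adjusted p = 1.26e-05). Here 48 h library 1 was the lowest of its group, though still above the untreated range; without it the log2 difference was 4.36. Ccnb2, a cyclin of mitosis, had 3.98, 127.8, 77.5 and 109.5, against 7.88, 7.04, 3.90, 7.07 and 1.46 (3.03 ± 0.66, adjusted p = 0.000802). For this gene 48 h library 1 lay inside the untreated range and the other 3 far above it; without library 1 the log2 difference was 4.18. Over the whole list, library 1 stood 0.89 log2 units above the untreated libraries of its experiment (median of the members), while libraries 2, 3 and 4 stood 2.99, 2.90 and 2.74 above. Ccne1, the cyclin of S phase entry, rose by 2.80, the ribonucleotide reductase genes Rrm2 and Rrm1 by 2.66 and 1.60 (Rrm2 by 2.05 without untreated libraries 1 and 4), thymidine kinase Tk1 by 2.65 and the spindle protein Tpx2 by 3.37 (4.05 without 48 h library 1). The replication licensing genes Mcm2 (0.98, adjusted p = 0.0912) and Mcm3 (0.53, adjusted p = 0.155) were not called; without 48 h library 4 Mcm2 passed (1.36, adjusted p = 0.0258), as it did with edgeR (1.21, adjusted p = 0.00779) and DESeq2 (1.19, adjusted p = 0.00982).

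The promoter of Ccnb2 (RefSeq, GRCm38.p6, chr9:70421505-70421804, minus strand, the same window) is printed as an example of this list, with the matches to CCAAT on either strand in capitals.
Ccnb2: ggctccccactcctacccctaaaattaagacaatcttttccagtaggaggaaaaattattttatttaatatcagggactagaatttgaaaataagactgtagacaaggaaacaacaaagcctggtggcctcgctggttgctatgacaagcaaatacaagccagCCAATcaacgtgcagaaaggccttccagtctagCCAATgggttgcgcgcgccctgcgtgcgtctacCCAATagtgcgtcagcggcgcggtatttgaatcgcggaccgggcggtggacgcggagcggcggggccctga
The matches begin 87, 54 and 21 bases before the start. CCAAT was found in 21 of 25 promoters of the list (84.0%; 24 of 30 genes matched), against 37.4% of all windows. Of the same 25 promoters 11 (44.0%) held TTTGAA, against 17.9% of all, and 5 (20.0%) held the E2F letters TTTNGCGC, against 1.38%.

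**Figure D3:**
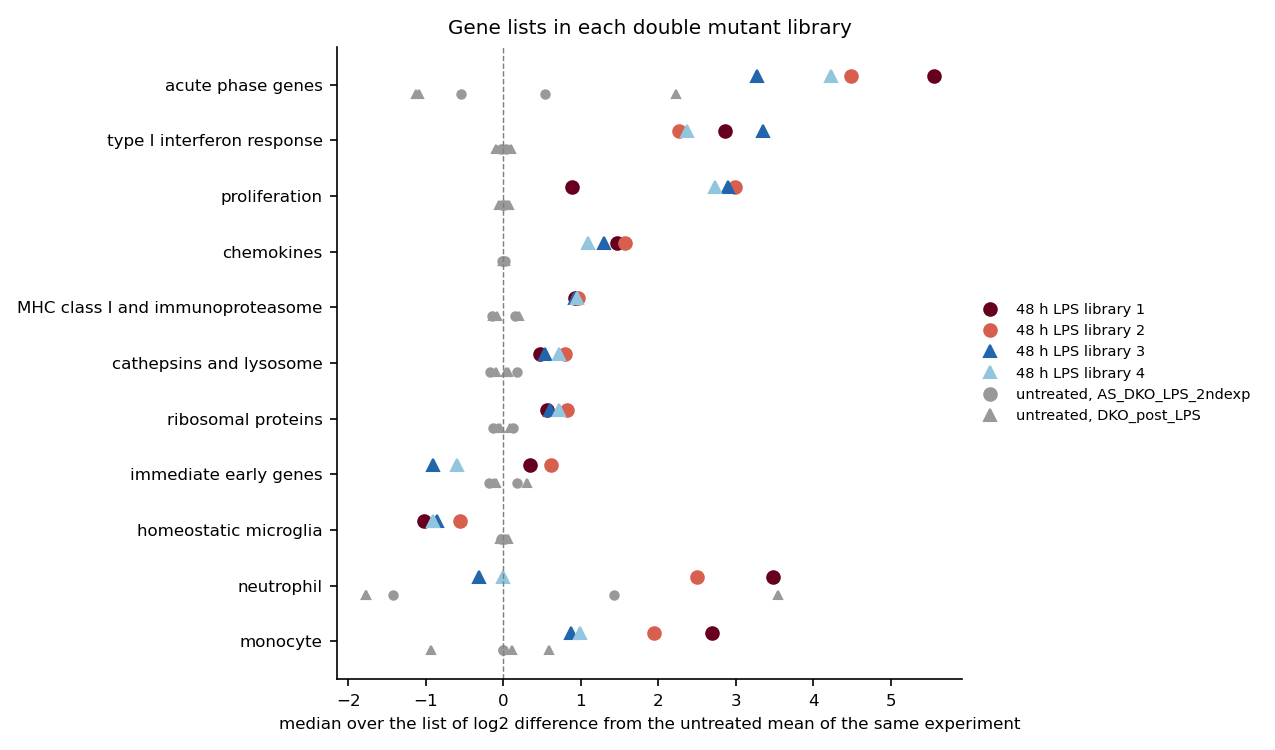
Median over the genes of 11 lists of the log2 difference between each double mutant library and the mean of the untreated double mutants of its own experiment. Large points are the 4 libraries at 48 h and grey points the untreated libraries, with shapes for the experiment. Library 1 at 48 h is lowest for proliferation at 0.89 and highest for acute phase genes at 5.56, and at 48 h the immediate early genes lie above 0 in the AS libraries and below 0 in the DKO_post libraries.

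Part of the chemokines were above the untreated level. Of 17 tested 9 were higher and 0 lower, where 11.2% of all genes tested were higher. The median was 1.17, and it was 1.56 within the AS and 1.20 within the DKO_post experiment. Ccl5, a chemokine that draws T cells and monocytes, stood at 445, 285, 471 and 566 at 48 h, against 34.9, 26.8, 29.2, 24.0 and 19.0 untreated (4.03 ± 0.26, adjusted p = 7.72e-15). The CCR2 ligands Ccl2 and Ccl12 rose by 2.54 and 2.50, the CXCR6 ligand Cxcl16 by 1.77, the CXCR3 ligand Cxcl10 by 2.49 and Ccl4 by 1.60. Ccl3, at 709, 860, 367 and 444 against 222 to 292 untreated, rose by 1.17 (adjusted p = 0.0182), but did not pass without 48 h library 1 (1.11, adjusted p = 0.0504) or without 48 h library 2 (1.02, adjusted p = 0.078). The neutrophil attractant Cxcl1 was at 0.662 to 2.93 at 48 h, against 1.41 to 2.25 untreated, and was not called (-0.21 ± 0.46, adjusted p = 0.811). The kappaB letters GGGANNTTCC stood in 4 of 12 promoters of the 12 chemokine genes matched (33.3%), against 1.47% of all windows.

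Cytokines moved less evenly. Of 14 tested 4 were higher and 2 lower, where 11.2% of all genes tested were higher and 6.86% lower. Il1b, interleukin 1 beta, stood at 253, 80.1, 27.8 and 51.9 at 48 h, against 15.8, 16.9, 3.90, 8.49 and 1.46 untreated (3.13 ± 0.47, adjusted p = 3.67e-06). Its groups did not overlap, and the AS libraries were the higher ones in both. Csf1, a growth factor of microglia, rose by 1.78 and Il18 by 0.61, while Il6 fell by 1.75 and Tgfb1, which maintains the microglial programme, fell by 0.88. Il12b rose by 2.16 in limma (adjusted p = 0.00682) and did not pass in edgeR (adjusted p = 0.117). The interleukin 1 receptor antagonist Il1rn, at 10.6 to 15.8 against 0 to 9.01, rose by 2.26 in limma and did not pass in edgeR either (adjusted p = 0.083). Il18bp, which captures interleukin 18, rose by 2.01 and the receptor chain Il18rap by 3.66.

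Within the NF-kB list 7 of 18 genes were higher and 1 lower (median 0.44); without 48 h library 1 there were 4 higher. Bcl3, a nuclear partner of NF-kB, rose by 2.80, Nfkbiz, another such partner, by 2.10 and the subunit gene Nfkb2 by 0.76, while Rela, the main activating subunit, fell by 0.54. Of 18 feedback inhibitors 7 were higher and 0 lower. Socs3, which blocks STAT3 signalling, stood at 1376, 1044, 563 and 973, against 259 to 364 (1.64 ± 0.20, adjusted p = 4.37e-08), and no library overlapped. Sbno2, known as a target of interleukin 10 and STAT3 in macrophages, rose by 1.41, and Usp18, which removes ISG15 and dampens the interferon receptor, by 3.69. In the interleukin 10 receptor, JAK and STAT list 4 of 12 rose, among them Stat2, Jak3 (1.02) and Stat3 (0.76). Among 15 genes of TNF receptor signalling 3 rose and 1 fell, with a median of 0.11, where 11.2% of all genes tested were higher and 6.86% lower. Ripk1, the kinase at the TNF receptor, had 51.7, 40.4, 42.4 and 41.8 normalised reads at 48 h, against 19.1, 23.9, 13.7, 18.4 and 11.7 (1.31 ± 0.19, adjusted p = 2.26e-06). Rhbdf2, which helps the TNF sheddase reach the cell surface, rose by 1.41. Of the LPS sensors, Tlr2 rose by 1.25, while Tlr4 (0.02, adjusted p = 0.981) and Cd14 (-0.36, adjusted p = 0.106) were not called; after quantile normalisation Cd14 was called lower (-0.51, adjusted p = 0.0133). Tlr7 and Tlr3 were called higher at 0.85 and 1.29, with untreated library 1 far below its group at 34.9 and 2.25, the other untreated libraries holding 161 to 292 and 29.3 to 59.2. Without that library they stood at 0.25 (adjusted p = 0.248) and 0.51 (adjusted p = 0.123). Tlr7 also failed after quantile normalisation (0.77, adjusted p = 0.0717) and without untreated library 5 or any one of 48 h libraries 1, 2 and 3 (0.75 to 0.88, adjusted p = 0.0549 to 0.124), and Tlr3 without 48 h library 1 or 2 (1.14 and 1.22, adjusted p = 0.0846 and 0.0664).

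Over both experiments together, antigen presentation split by class. Of 19 MHC class I and immunoproteasome genes 14 rose and 0 fell (median 0.87, and 0.84 and 0.88 within the AS and DKO_post experiments). H2-D1, a class I heavy chain, had 1880.0, 2694, 2515 and 3218 at 48 h, against 974, 568, 659, 619.5 and 1353 (1.69 ± 0.21, adjusted p = 6e-08). H2-K1 rose by 1.54, the light chain B2m by 1.12, the peptide pump gene Tap1 by 1.43 and Nlrc5, the activator of class I genes, by 3.22. Every 48 h library of these 5 genes lay above every untreated one, and tags of the class I heavy chains could be shared among their near-identical copies. Of 8 class II genes 0 rose and 3 fell. Over all genes tested 11.2% rose and 6.86% fell. H2-Eb1 stood at 15.9, 5.96, 5.85 and 10.2, against 37.1, 7.75, 127, 89.1 and 113, and fell by 2.27 (adjusted p = 0.00245). H2-Oa fell by 1.09, and H2-Aa by 1.48 (adjusted p = 0.0192). The class II median was 0.26 within the AS experiment and -0.46 within the DKO_post experiment, so the sign of the median was not shared. Within the AS experiment 0 of the 8 were called. H2-Eb1 stood at -0.75 within the AS and -3.65 within the DKO_post experiment, and H2-Aa at -0.17 and -2.59. H2-Oa was closer between them, at -1.31 and -0.92. H2-Aa did not pass without 48 h library 3 (-1.18, adjusted p = 0.111), 48 h library 4 (-1.27, adjusted p = 0.0837) or untreated library 4 (-1.33, adjusted p = 0.0515).

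Uptake and degradation genes rose by smaller amounts. Of 12 complement genes and receptors 8 rose and 0 fell (median 0.69), or 5 rose without 48 h library 1, where 11.2% of all genes tested rose. Beside C4b and C3 the called rises included properdin, Cfp (1.54), and the integrin chains Itgb2 (0.68) and Itgam (0.69) of complement receptor 3. C1qa, with 17710 to 19660.0 at 48 h against 10570 to 14750 untreated, was called at 0.60 (adjusted p = 0.0247), yet not after quantile normalisation (0.21, adjusted p = 0.384), nor without any one of 48 h libraries 1, 2 and 4 (0.57 to 0.60, adjusted p = 0.0531 to 0.0594) or untreated libraries 3 and 4 (0.58 and 0.53, adjusted p = 0.0512 and 0.0658). Itgam did not pass after quantile normalisation (0.43, adjusted p = 0.0897). Of 5 Fc gamma receptor genes 3 rose. Fcgr4, an activating receptor for IgG, stood at 468, 256, 211 and 266, against 22.5, 21.8, 23.4, 11.3 and 20.5 (3.81 ± 0.21, adjusted p = 4.68e-17), with a wide gap between the groups, and the inhibitory Fcgr2b rose by 1.27. Of 17 cathepsin and lysosome genes 11 rose and 1 fell (median 0.65, and 0.53 and 0.66 within the experiments). The proteases Ctsl, Ctsh, Ctsc and Ctsz rose by 1.66, 1.31, 1.30 and 0.94. Ctsl stood at 4263, 4548, 3733 and 4329, against 1583, 1240.0, 1355, 1484 and 1018, a gap wider than either group's range.

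Genes of homeostatic microglia were lower. Of 23 tested 17 fell and 0 rose, with a median of -0.81, where 6.86% of all genes tested fell. All 23 lay below 0 in each experiment, with medians of -0.77 (AS, 0 called) and -0.90 (DKO_post, 9 called). P2ry12, the ADP receptor that steers microglial processes, stood at 1016, 1551, 1656 and 1241 at 48 h, against 2608, 4919, 5153, 5459 and 3567 untreated (-1.61 ± 0.19, adjusted p = 3.85e-08). Its groups did not overlap, and untreated library 1 was the lowest of its own. Slc2a5, a fructose transporter, fell by 1.29, the purine receptor gene P2ry13 by 1.38, the lectin Siglech by 1.12, the adhesion receptor Adgrg1 by 0.98 and Sall1, a transcription factor of microglial identity, by 0.81. Gpr34, a lysophosphatidylserine receptor, had 136, 299, 231 and 246 at 48 h, against 100.2, 1054, 1170.0, 1151 and 1448 untreated, and fell by 1.67. Untreated library 1 lay under all 48 h values there, and without it the log2 difference was -2.36. Tmem119, at 2584 to 3202 against 3219 to 5404, fell by 0.54 (adjusted p = 0.0177), but did not pass without untreated library 1 (-0.45, adjusted p = 0.0638), without 48 h library 2 (-0.47, adjusted p = 0.0735) or without 48 h library 4 (-0.52, adjusted p = 0.05). Fcrls fell by 0.85, with 48 h library 1 lowest at 873, and did not pass without that library (-0.55, adjusted p = 0.0568). Bin1, Csf1r and Olfml3 were among the 6 not called, at -0.34 to -0.14; Bin1 passed without untreated library 5 (-0.44, adjusted p = 0.0265) or 48 h library 3 (-0.44, adjusted p = 0.0493), and after quantile normalisation (-0.71, adjusted p = 0.000389).

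The TGF-beta list held 4 genes that fell and 0 that rose among 13, where 6.86% of all genes tested fell. The receptor gene Tgfbr1 stood at 1062, 1035, 1271 and 1082, against 2428, 2531, 2646, 2460.0 and 3652 (-1.26 ± 0.16, adjusted p = 2.63e-07), with a gap between the groups. Beside Tgfb1, the inhibitor gene Ski fell by 0.76. Smad3, a signal carrier of the pathway, fell by 0.63 (adjusted p = 0.0301), but did not pass without untreated library 1 or 3 or 48 h library 1 or 2 (-0.60 to -0.49, adjusted p = 0.0728 to 0.147).

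Among 20 genes of disease-associated microglia, a state described in mouse models of neurodegeneration, 8 rose and 3 fell. Over all genes tested 11.2% rose and 6.86% fell. Axl, a receptor for dying cells, stood at 120.2, 195, 221 and 155.7 at 48 h, against 21.1 to 39.6 untreated (2.60 ± 0.27, adjusted p = 1.58e-09). The protease inhibitor gene Cst7 rose by 1.80, the integrin Itgax by 1.28 and Apoe by 0.86. Trem2, the receptor that drives this state, fell by 0.75, at 1621, 2251, 2706 and 3107 against 2936 to 6545 untreated, with 48 h library 4 above the lowest untreated library.

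The 15 largest falls were in genes of many kinds. Upk1b, a tetraspanin, had 12.4, 33.8, 19.0 and 21.4 at 48 h, against 137, 214, 239.8, 240.4 and 196 untreated (-3.26 ± 0.30, adjusted p = 1.01e-10). The scaffold gene Cass4 had 2.21, 5.30, 2.93 and 5.64, against 40.5, 35.9, 56.5, 58.0 and 43.9 (-3.33 ± 0.41, adjusted p = 5.97e-08). Neither gene had a 48 h library near the untreated ones. Gprasp2 fell by 3.21, the transcription factor Hlf by 3.12, Tmem204 by 2.96, Tnfrsf17, the BCMA receptor, by 2.79, the GTPase Gimap6 by 2.74 and the myosin Myo18b by 2.65. Angptl7 fell by 2.56, the endocytic adaptor Pacsin1 by 2.49, Duoxa1, a maturation factor of dual oxidase, by 2.48, the transcription factor Sox4 by 2.44, Gp9 by 2.35 and the amino acid transporter Slc36a2 by 2.31. The largest fall under the rule, Rnaset2b at -3.65, is uncertain: its untreated values were 10.1, 21.8, 15.6, 567 and 473, its difference ran from -4.25 to -2.93 with untreated library 1, 4 or 5 left out, and it has a near-identical copy, Rnaset2a, to which tags could have been split.

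Against 6 h, the 48 h libraries showed a different make-up. Of 11800 genes 4668 were called (39.6%), 2465 higher (20.9%) and 2203 lower (18.7%) at 48 h than at 6 h; the 48 h libraries are those compared with untreated mice. The early inflammatory genes were lower at 48 h: 0 of 17 chemokines were higher and 13 lower, and of 18 NF-kB genes 0 were higher and 15 lower. Cxcl1 had 0.884, 0.662, 2.93 and 1.13 normalised reads at 48 h, against 72.9 to 115.5 at 6 h (log2 difference -5.68, adjusted p = 7.25e-13). Il1rn, Plet1, Spp1, Cxcl2, Ccl22, Ccr7 and Abtb2 were the other genes of the 8 largest falls, at -5.02 to -4.56; Plet1 stood at -5.60 without 48 h library 1. The LPS co-receptor gene Cd14 had 785, 654, 519 and 595 at 48 h, against 5348 to 8316 at 6 h (-3.35), with no overlap. Of 17 hypoxia and glycolysis genes 13 were lower at 48 h than at 6 h and 0 higher.

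Of the 30 interferon genes 2 were higher at 48 h than at 6 h and 7 lower (3 lower without 48 h library 4), with a median of -0.28, where 20.9% of all genes tested were higher and 18.7% lower. Ifi27l2a was one of the 2 higher, at 564, 2112, 2636 and 2725 at 48 h, against 112.1 to 284 at 6 h (3.26), with 48 h library 1 well under the other 3. Cell cycle genes had 28 of 30 higher and 0 lower than at 6 h, with a median of 3.08. E2f1, a driver of S phase genes, rose by 4.62, the survivin gene Birc5 by 4.57 and the kinetochore gene Spc24 by 4.45; Cdca3, Adora1, Knstrn, Tk1 and Tcf19 completed the 8 largest rises, at 4.05 to 4.41. Without 48 h library 1 the differences of Birc5, Cdca3, Spc24 and Knstrn were 5.40, 5.17, 5.07 and 4.96. Birc5 was at 7.95, 72.9, 61.4 and 58.7 at 48 h, against a mean of 1.12 at 6 h, again with library 1 the lowest. C4b rose by 2.54 over 6 h, Cyp4f18 by 3.76, Fxyd5 by 3.23 and Cd72 by 2.67. Of 23 homeostatic genes 13 were higher at 48 h than at 6 h and 1 lower (median 0.62): P2ry12 was at 408 to 541 at 6 h, so its 48 h values lay between those at 6 h and the untreated ones. Of 17 lysosome genes 15 were higher at 48 h than at 6 h and 0 lower.

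**Figure D4:**
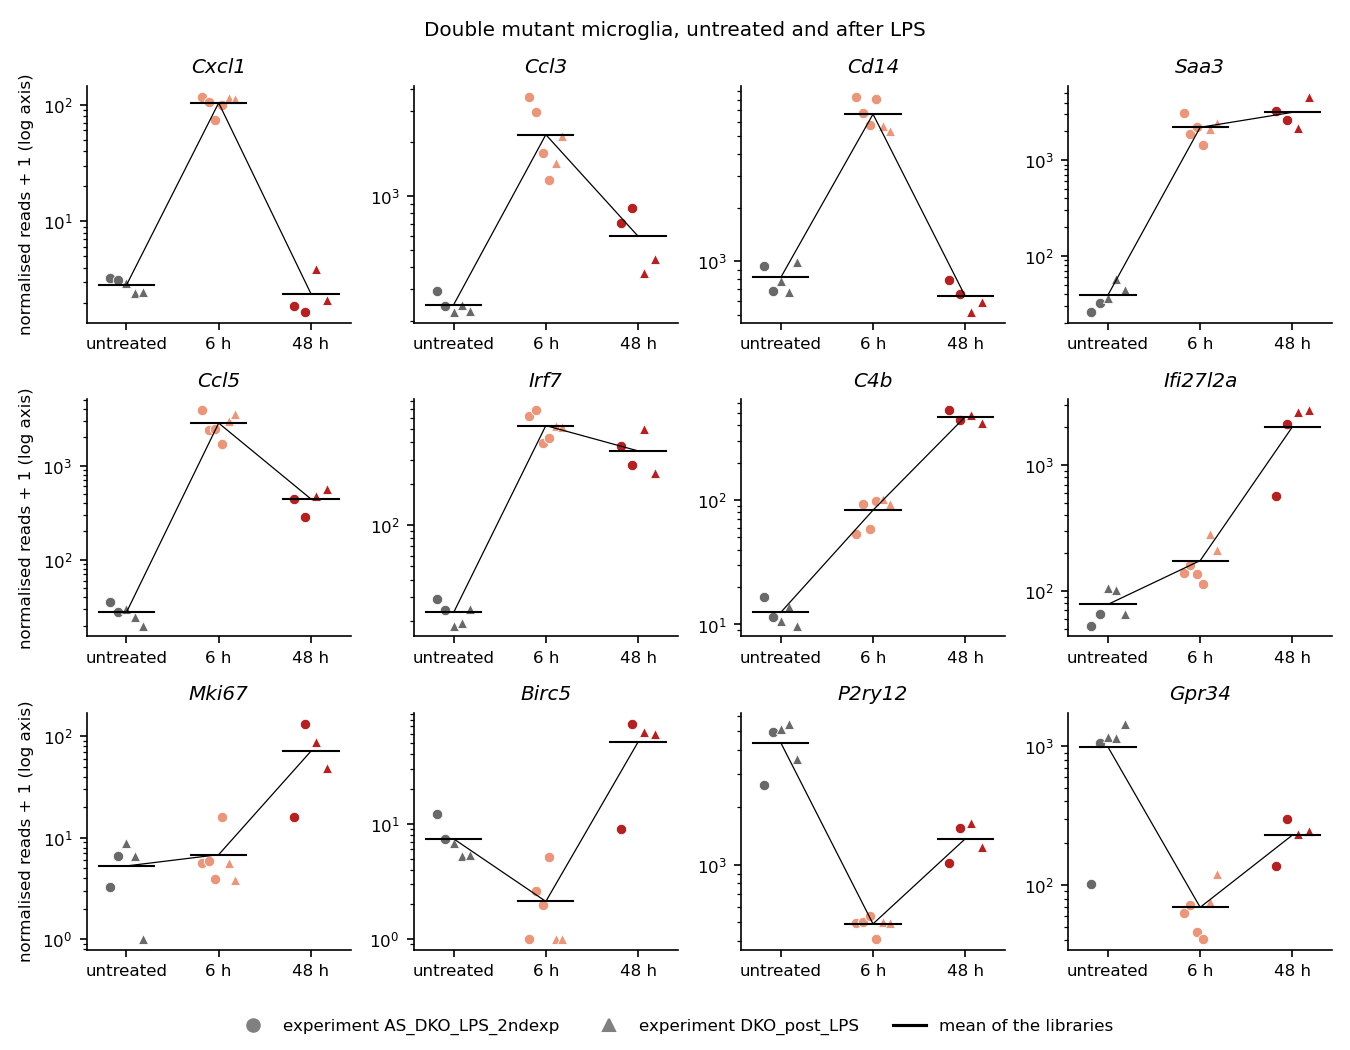
Normalised reads plus 1 (log axis) of 12 genes in double mutants, untreated, 6 h and 48 h after LPS. Points are libraries, their shape the experiment, and horizontal bars the means. Cxcl1, Ccl3 and Cd14 peak at 6 h, Saa3 and Irf7 lie above the untreated libraries at 6 h and 48 h, C4b, Ifi27l2a, Mki67 and Birc5 are highest at 48 h, and P2ry12 and Gpr34 are lowest at 6 h.

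The response of the double mutants was then compared with that of floxed controls, as the difference between the 2 log2 responses in 1 fit. In limma 0 of 11800 genes passed an adjusted p under 0.05 (0%), and 474 (4.02%) had an unadjusted p under 0.05, while edgeR and DESeq2 also called 0, with 410 and 400 at an unadjusted p under 0.05. A missed threshold does not show that the responses are alike: the 95% interval of the difference had a median margin of 0.74 log2 units over all genes. For 1152 of the 2130 genes called in double mutants that interval lay within 1 log2 unit of 0. Of the 1321 genes higher in double mutants 1301 were also above 0 in controls and 1039 were called there; of the 809 lower ones 795 were below 0 and 580 called. The called rises had a median of 1.25 in double mutants and 1.02 in controls, and the called falls -0.86 and -0.69. These genes were chosen for their change in double mutants, so the larger medians there are a description. In controls 1625 genes (13.8%) were called higher and 1160 (9.83%) lower at 48 h.

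Medians of the main lists are set side by side. The type I interferon median was 2.71 in double mutants and 2.40 in controls, that of proliferation 2.45 and 2.92, of acute phase genes 3.97 and 3.84, of chemokines 1.17 and 1.83, and of homeostatic genes -0.81 and -0.77. The lowest p for the difference was that of Ripk1, whose log2 response was 1.31 in double mutants and 0.14 in controls (difference 1.17, 95% interval 0.66 to 1.68, adjusted p = 0.481). Its controls averaged 35.2 normalised reads at 48 h and 30.7 untreated. Ripk1 was picked for having the lowest p of 11800 genes, and its interval takes no account of that choice. It is therefore not a called difference between the genotypes. For Tnf itself, a targeted gene, the response was 1.27 in double mutants, where it turned between the experiments, and 2.92 in controls (difference -1.65, 95% interval -2.89 to -0.40, adjusted p = 1). The 2 libraries of Il10ra single mutants at 48 h in the AS experiment, whose Tnf gene carries no floxed allele in the labels, held Tnf at 2031 and 2439, Ccl4 at 9301 and 9560.0, Acod1 at 916 and 1002 and Mki67 at 3.17 and 3.70. The double mutants of that experiment held Tnf at 6.18 and 9.27, Ccl4 at 889 and 782, Acod1 at 5.30 and 1.99 and Mki67 at 15.02 and 131.8. These genes were picked without a rule, and the size of the difference varied by gene. Saa3 was at 3560 and 4423 in the single mutants, against 3253 and 2638 in the double mutants. Fn1 was at 7.13 and 16.7, against 367 and 217. The difference between these genotypes was not tested here.

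**Figure D5:**
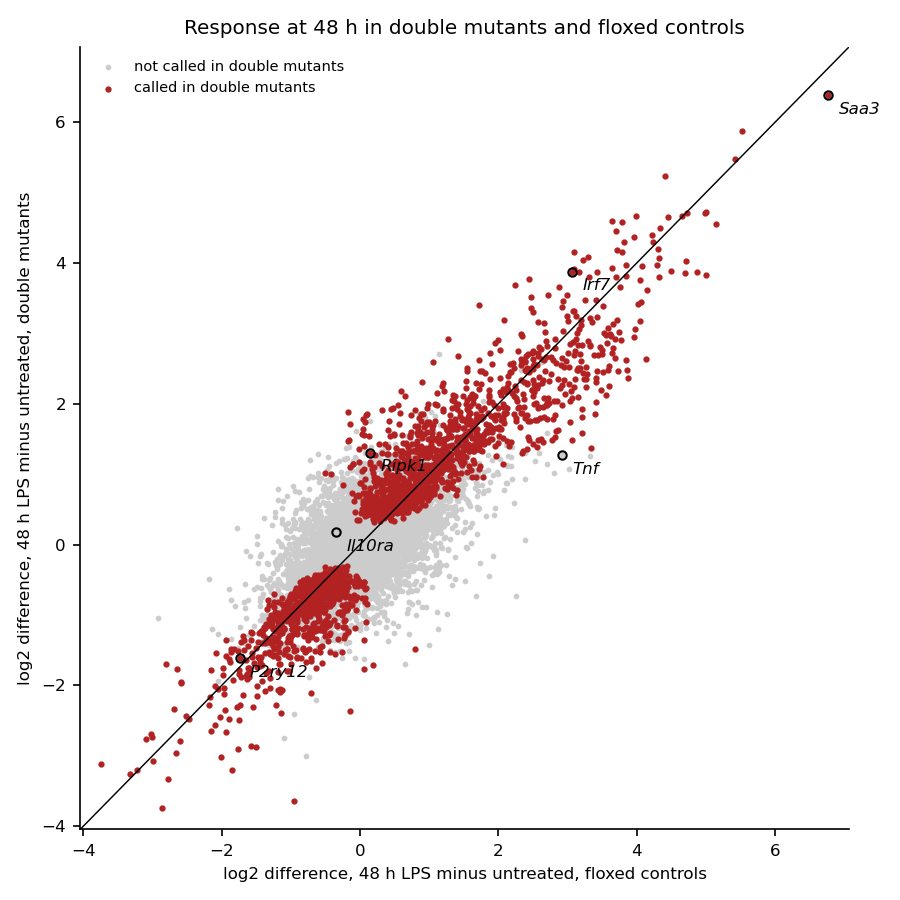
Log2 difference between 48 h after LPS and untreated in double mutants (vertical) against the same in floxed controls (horizontal) for 11800 genes, red where called in double mutants, with the line of equality. Saa3, Irf7 and P2ry12 lie near the line, Ripk1 above it (1.31 against 0.14) and Tnf below it (1.27 against 2.92).

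Markers of other cells were measured beside these results. Summed monocyte markers ran from 245 to 573 at 48 h, against 16.1 to 72.1 untreated, with 3 of 9 genes called higher: Fn1, Ms4a4c (3.39) and Plac8 (2.47). Fn1, reported above among the largest rises, made up much of this sum, at 164 to 367 at 48 h against 1.95 to 4.50 untreated. Ccr2 and Ly6c2, which define blood monocytes, were not called, at 0.662 to 5.74 and 0 to 8.39 at 48 h, against 1.13 to 13.7 and 0 to 11.7 untreated. Without untreated library 1 Ccr2 passed as lower (-1.69, adjusted p = 0.0345). The monocyte list had a median of 2.26 within the AS and 1.01 within the DKO_post experiment, and Ly6c2 stood at 2.32 and -1.22. Over all genes tested 11.2% were called higher. Summed markers of border macrophages ran from 47.7 to 184 at 48 h, against 14.1 to 85.8, with 3 of 10 called: Siglec1, which is also induced by interferon (3.17), Cbr2 (2.46) and Folr2 (1.81). The median of this list in 48 h library 1 stood 2.31 log2 units above the untreated libraries of its experiment. In 48 h libraries 2, 3 and 4 it stood 0.49, 0.41 and 0.91 above. Without 48 h library 1 the list's median fell from 0.80 to 0.40. Folr2 did not pass without untreated library 2 (1.44, adjusted p = 0.0742), and Mrc1 and Lyve1 were not called. Of 12 lymphocyte markers 1, Cd79b, was in the table, at 29.6 to 111.7 against 36.6 to 62.2; it was not called except without 48 h library 1 (0.97, adjusted p = 0.0144). Summed astrocyte markers were at 130 to 216 against 205 to 304, endothelial markers at 4.39 to 46.3 against 9.90 to 16.9 and erythroid markers at 1.33 to 206 against 7.32 to 822. Of 4 oligodendrocyte marker genes tested 0 were called. The part of these cells in the results was not tested.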

How the data were processed

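Microglia libraries were made by MARS-seq, per the labels. The values are signal values, reads per gene scaled to the library by the authors before deposition; mm10 is named in the submitters' processing notes, and no source used here gives the scaling method, aligner or counter. Of the deposited values 100% were whole multiples of 1 read (tolerance 0.01). The table held 13390 genes and 38 libraries; 18 rows with date-like names were left out, as was 1 library whose labels give it 2 genotypes. An untreated double mutant library, number 4, whose column name holds the word "mistake", was kept because its labels give 1 group.

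Groups came from titles and genotypes. The 11800 genes with at least 5 normalised reads in at least 4 libraries were fitted with limma 3.58.1 (R 4.3.3, trend) on log2(value + 1), with 1 coefficient per group and an additive experiment term over 37 libraries. P-values were two-sided and Benjamini-Hochberg adjusted, with calls under 0.05. Members and gene lists were chosen with earlier results of these data known. Genes were named if among the 15 largest rises or falls (8 against 6 h) with an absolute log2 difference of at least 1, a mean of at least 20 in 1 group and no overlap, without unnamed transcripts, or if among up to 6 genes of each list with the lowest p or defining it. Alternatives were edgeR 4.0.16 and DESeq2 1.42.0 on recovered reads, other pseudocounts, filters, scalings and fits, and each library left out. The procedure was tested on simulated data. Chromatin accessibility peaks and other genotypes were not analysed here, except the Il10ra single mutants named in the text. Some genes are not reported here.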

Additional observations from a re-analysis of the deposited data

Results flagged for a closer look

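Of 306 groups of libraries examined, 23 held a library whose gap to its nearest neighbour was large against the range of the group, by Dixon's criterion; chance gives about 1 in 20. Untreated library 5 had 6 of these. It was the highest untreated library for Fcgr2b (302 normalised reads, next 207), Cd68 (1984, next 1280.0), Tgfbr1 (3652, next 2646), Jund (1125, next 550.5), Fth1 (3820.3, next 2917) and Aldoa (565, next 357). Untreated library 1 was the highest for Jun (2884, next 1786) and Itgb2 (734, next 498), and held 0.0948% mitochondrial reads where the next library had 0.959%. Untreated library 3 was the highest for S100a8 (232, next 11.3) and S100a9 (355, next 27.0), and untreated library 2 the lowest for Nfkb2 (41.6, next 57.1).

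At 48 h, library 1 was the highest for Lrg1 (182.5, next 64.9), Fxyd5 (327, next 144.4), Il18 (144.02, next 123) and Bcl2l1 (117.5, next 84.9). Library 2 at 48 h was the lowest for Rela (118.6, next 146.3) and Cd74 (119.9, next 196), and the highest for Ctsh (2769.9, next 2288) and for mitochondrial reads (2.38%, next 1.50%). Library 3 was the lowest for Aldoa (165, next 237) and library 4 for Olfml3 (109.5, next 136.5). At 6 h, library 4 was the lowest for P2ry12 (408, next 494).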

How the results depend on the processing

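The count of 2130 genes called at 48 h against untreated was within 1.5 times with other pseudocounts, no filter or a filter over the 9 libraries, no experiment term, quantile normalisation, edgeR and DESeq2 (1749 to 2271), and 1686 to 2069 with each library left out. A setting added after seeing the data, leaving out untreated libraries 1 and 4, gave 1753. It fell to 1279 (801 higher, 478 lower) with only the 9 libraries in the fit, to 22 within the AS experiment (21 higher, 1 lower), to 394 within the DKO_post experiment (254 higher, 140 lower) and to 942 with a replicate block (638 higher, 304 lower); fits on fewer libraries have fewer degrees of freedom. Against 6 h, 4668 calls became 1893 with a replicate block (983 higher, 910 lower) and 3937 to 4637 with each library left out. Same-numbered libraries did not deviate together (correlations of deviations -0.12 to 0.05 between 48 h and untreated, -0.08 to 0.11 between 48 h and 6 h), so the numbers were not taken to pair them. The comparison with floxed controls gave 0 calls under every setting run.

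Of 186 called values of single genes named, 38 passed under every alternative run for their comparison and 0 reversed. The others did not pass within the AS experiment. The 186 include differences between 48 h and 6 h, which were not fitted within either experiment alone or with only the 9 libraries. Such values could not fail those fits, so fewer than 38 values against untreated mice passed every alternative. Within the DKO_post experiment 71 did not pass, with the replicate block 33 and with only the 9 libraries in the fit 17. The replicate block and the fit of 9 libraries each left 10 of the 17 homeostatic calls. In the shallowest of the 9 libraries, with 540642 recovered reads, low genes rest on few reads each.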

Other observations

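Part of the genes of protein synthesis and respiration were also higher at 48 h than in untreated double mutants. Of 22 ribosomal protein genes 14 rose and 0 fell, with a median of 0.62, and medians of 0.63 and 0.64 within the AS and DKO_post experiments; over all genes tested 11.2% rose. Rps19 rose by 1.33 and Rplp0 by 1.00. Ribosomal protein genes have many processed copies, to which tags could have been split. Of 20 genes of oxidative phosphorylation 9 rose and 0 fell (median 0.40, and 0.36 and 0.41 within the experiments), among them Ndufa1 of complex I (1.06), Sdhb of complex II (0.50) and Cox4i1 of complex IV (0.76). Of 14 costimulation and adhesion genes 8 rose and 0 fell (median 1.08). Itgal, an integrin chain, rose by 2.82, the hyaluronan receptor Cd44 by 2.55 (1.76 without untreated libraries 1 and 4) and the adhesion molecule Vcam1 by 1.40.

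Immediate early genes, which respond within minutes to many stimuli including tissue handling, had medians of opposite sign in the 2 experiments. Within the AS experiment 14 of 17 lay above 0 at 48 h and 3 below, with a median of 0.62, while within the DKO_post experiment 2 lay above and 15 below, with a median of -0.88. In the joint fit 1 rose and 3 fell, or 1 without untreated libraries 1 and 4. Ier3 had 569, 307, 86.3 and 121.9 at 48 h, against 56.5 to 87.7 untreated (1.43). Jund fell by 1.49, and Jun by 1.00 (adjusted p = 0.00928), or by 0.82 without untreated libraries 1 and 4 (adjusted p = 0.0696). The difference between experiments was not tested.

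Counts for the remaining lists are read against 11.2% of all genes tested called higher and 6.86% lower. Of 16 matrix and iron genes 6 rose and 2 fell, with the metal transporter Slc39a14 at 2.60, the metallothioneins Mt1 and Mt2 at 1.40 and 1.50, the matrix protease Mmp14 at 1.27 and ferritin heavy chain Fth1 at 1.23. The iron exporter Slc40a1 fell by 1.25, but did not pass without 48 h library 4 (-1.10, adjusted p = 0.0597). Of 17 glycolysis and hypoxia genes 3 rose, namely Ldha (0.77), Pkm (0.62) and Gpi1 (0.60), and Aldoa fell by 0.71. Of 16 inflammasome and cell death genes 5 rose (3 without untreated library 1 or 48 h library 1, 2 without 48 h library 4) and 3 fell, with Casp4 at 1.22, Casp8 at -0.71 and Bcl2l1 at -0.64. Of 12 interferon regulatory factor genes 3 rose and 2 fell (1 without untreated library 1 or 48 h library 2), Irf5 by 0.48. Of 10 itaconate and immune metabolite genes 2 rose. Of 14 cholesterol genes 1 fell, Mylip by 0.74. Of 23 heat shock and unfolded protein genes 2 rose, Hspa5 by 0.81 among them, and Hspb1 fell by 1.80. Of 20 constitutive proteasome genes 2 rose. With single libraries left out the itaconate rises were 0 or 1, the heat shock rises 1 to 4 and the proteasome rises 0 to 2. The rises of the heat shock and proteasome lists were no larger a share than over all genes tested. Of 5 interleukin 1 decoy and receptor genes 3 rose, or 5 without 48 h library 4. Of 17 genes of LPS sensing 4 rose and 1 fell, the rises being 2 without untreated library 1, 48 h library 1 or 48 h library 2. Of the 8 defining markers of microglia 4 fell. Of the endothelial markers tested 1 of 2 fell, and of 2 neuronal, 2 astrocyte and 4 erythroid markers 0 were called.

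The library left out of all groups, whose title names floxed controls at 48 h and whose description names double mutants, held Il10ra at 467 and Saa3 at 4870.0 normalised reads.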
